A study of Mus musculus with 8 samples.

Results

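Fat absorption by the enterocyte, the absorptive cell of the gut lining, was followed through 10 genes in ileal crypt preparations from mice given the drug CPT-11 or vehicle. They are Cd36, Fabp1, Fabp2, Dgat1, Dgat2, Mttp, Apob, Apoa1, Apoa4 and Apoc3. They were chosen by name, with earlier results of these data known, for their part in lipid uptake, triglyceride synthesis and chylomicron assembly. All 10 were found among the 55487 named rows of the count table, and all 10 were among the 14011 genes with enough counts to test. Of the 10, 1 was called higher after CPT-11 and 0 were called lower, beside 2.98% and 2.52% of all genes tested.

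CPT-11 (irinotecan) is a prodrug of a topoisomerase I inhibitor. One group of C57BL/6 mice had received it at 20 mg per kg for 7 days and the other group vehicle, with 4 libraries in each. The labels used here do not give age or sex, or say whether each library came from its own mouse. The p-values therefore measure only how far libraries differ, which may be technical. Crypts were freed from ileum with EDTA and dissociated with trypsin, and no sort is given in the labels, so the preparations may hold other cell types. In such bulk samples, fewer cells of a type and less RNA per cell cannot be told apart.

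Dietary triglyceride is split in the gut lumen, and the fatty acids and monoglycerides enter the enterocyte. CD36 is a fatty acid receptor of the apical membrane, and the fatty acid binding proteins FABP1 (liver type) and FABP2 (intestinal type) carry the acids through the cytoplasm. DGAT1 and DGAT2 each catalyse the last step of triglyceride synthesis, and the microsomal transfer protein MTTP loads the lipid onto apolipoprotein B in the endoplasmic reticulum. The particle gains apolipoproteins A-I, A-IV and C-III and leaves the cell as a chylomicron. Most of these genes are known as products of differentiated villus cells more than of crypt base cells.

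All 10 genes are annotated as protein-coding (GENCODE M21, GRCm38). Apoa1, Apoc3 and Apoa4 lie side by side on chromosome 9, at chr9:46228580-46230466, chr9:46232933-46235636 and chr9:46240696-46243459, with Apoc3 on the opposite strand to the others. With Apoa5, which had 6 counts at most in a library and was not tested, they span 43340 bases. Fabp2 lies at chr3:122895072-122899506, Mttp at chr3:138089854-138144968, Fabp1 at chr6:71199827-71205023 and Apob at chr12:7977648-8016835. Cd36 lies at chr5:17781690-17888801, Dgat1 at chr15:76502015-76511953 and Dgat2 at chr7:99153658-99182719. Exons of Apoa4 overlap those of the antisense gene Gm10680, which had up to 489 counts, and exons of Mttp overlap those of Trmt10a, which had up to 143. Whether the authors counted by strand is not given in the sources used here, so reads in these overlaps cannot be assigned.

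The upstream sequences of 3 members are shown because Fabp2 was the member called higher, Apoa1 was the other member whose groups did not overlap, and Fabp1 is the close relative of Fabp2 that was not called. They are RefSeq windows of build GRCm38.p6, from 250 bases before the start and ending where the annotated gene begins, written 5′ to 3′ on the plus strand, which is the strand of each gene. The windows are chr3:122894822-122895071 for Fabp2, chr9:46228380-46228579 for Apoa1 and chr6:71199629-71199826 for Fabp1. Capitals mark matches to the motifs searched.
Fabp2 promoter: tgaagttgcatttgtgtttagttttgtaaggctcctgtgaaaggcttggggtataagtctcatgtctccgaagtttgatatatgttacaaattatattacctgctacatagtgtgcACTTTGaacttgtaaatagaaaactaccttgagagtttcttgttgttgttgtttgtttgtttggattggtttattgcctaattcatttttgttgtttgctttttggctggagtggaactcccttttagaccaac
Apoa1 promoter: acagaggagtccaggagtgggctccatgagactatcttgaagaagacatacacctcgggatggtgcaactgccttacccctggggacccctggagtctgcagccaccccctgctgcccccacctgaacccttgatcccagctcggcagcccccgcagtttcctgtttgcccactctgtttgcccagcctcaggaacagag
Fabp1 promoter: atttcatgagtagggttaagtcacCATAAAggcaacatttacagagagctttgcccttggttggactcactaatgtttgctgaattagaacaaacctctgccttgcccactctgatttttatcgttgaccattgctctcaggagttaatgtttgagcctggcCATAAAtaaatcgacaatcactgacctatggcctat

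A set of 5 short motifs was searched on both strands in the 250 bases before the start, in the 7 members with a RefSeq promoter entry (Apoa1, Apoa4, Apob, Fabp1, Fabp2, Mttp and Cd36). HNF4A, GATA4 and CDX2 are transcription factors of enterocyte identity. The 9-letter HNF4 motif CAAAGTCCA was in 0 of the 7 and in 0.384% of all 32851 promoters. Its core CAAAGT, which lies inside the longer motif, was in 3 of the 7 (Fabp2 at -134, Apoa4 at -182 and Cd36 at -122) and in 12.6% of all. That match in Cd36 lies inside the annotated gene, as do most of the 250 bases searched for Cd36 and for Mttp. The GATA motif AGATAA was in 0 of the 7 against 9.99% of all. The CDX motif TTTATG was in Fabp1, at -226 and -88, and in Cd36, against 10.8% of all. The TATA box TATAAA was in Fabp1, at -30 and thus inside the annotated gene and not shown, and in Apob, against 12.4% of all. A match describes the letters only, and the window of Apoa1 held none of these motifs.

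Levels are given per length first, since only such values compare one gene with another. They are in TPM, a transcript abundance scaled by the gene lengths of the table and by the library total. In the vehicle libraries Apoa1 stood highest among the members, at 7039 ± 1960 TPM (mean ± SD, n = 4), rank 25 among all named genes. Fabp2 followed at 3153 ± 773 TPM (rank 42) and Apoa4 at 912 ± 437 TPM. Fabp1 (333 ± 186 TPM), Mttp (295 ± 32.4 TPM), Dgat1 (290 ± 43.0 TPM) and Apoc3 (198 ± 94.7 TPM) came next, and each overlapped its neighbour in this order. Apob was at 65.3 ± 17.6 TPM and Dgat2 at 38.6 ± 8.85 TPM, with overlapping ranges. Cd36 was lowest by far, at 7.35 ± 3.04 TPM (rank 6943). The ranges of neighbours did not overlap between Apoa1 and Fabp2, Fabp2 and Apoa4, Apoa4 and Fabp1, Apoc3 and Apob, or Dgat2 and Cd36. With CPT-11, Apoa1 was at 14398 ± 5213 TPM (rank 9) and Fabp2 at 9761 ± 3595 TPM (rank 20).

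Between groups each gene was compared in CPM, counts scaled to the TMM-scaled library size, and tested with edgeR's quasi-likelihood test, with Benjamini-Hochberg adjustment over all 14011 genes and a threshold of 0.05. Of the 10 members, only Fabp2 passed. Over all genes 5.50% were called in either direction, 2.98% higher and 2.52% lower. Fold changes were positive for 9 members and negative for Cd36, where 7188 of the 14011 genes tested had positive ones. The median log2 fold change of the members was 0.71 (0.54 without CPT-11 replicate 2), beside 0.014 over all genes tested. At an unadjusted p below 0.05 stood 3 members, Fabp2, Apoa1 and Apoc3, where 24.6% of all genes did. Groups did not overlap for 2 members, Fabp2 and Apoa1, where 18.5% of all genes showed no overlap. Both were higher with CPT-11, as were 8.43% of all genes, and 0 members were lower without overlap, against 10.1% of all genes. Each of these counts rests on 3 genes or fewer. In the same direction, an unadjusted p below 0.05 was found in 13.4% of all genes.

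**Figure D1:**
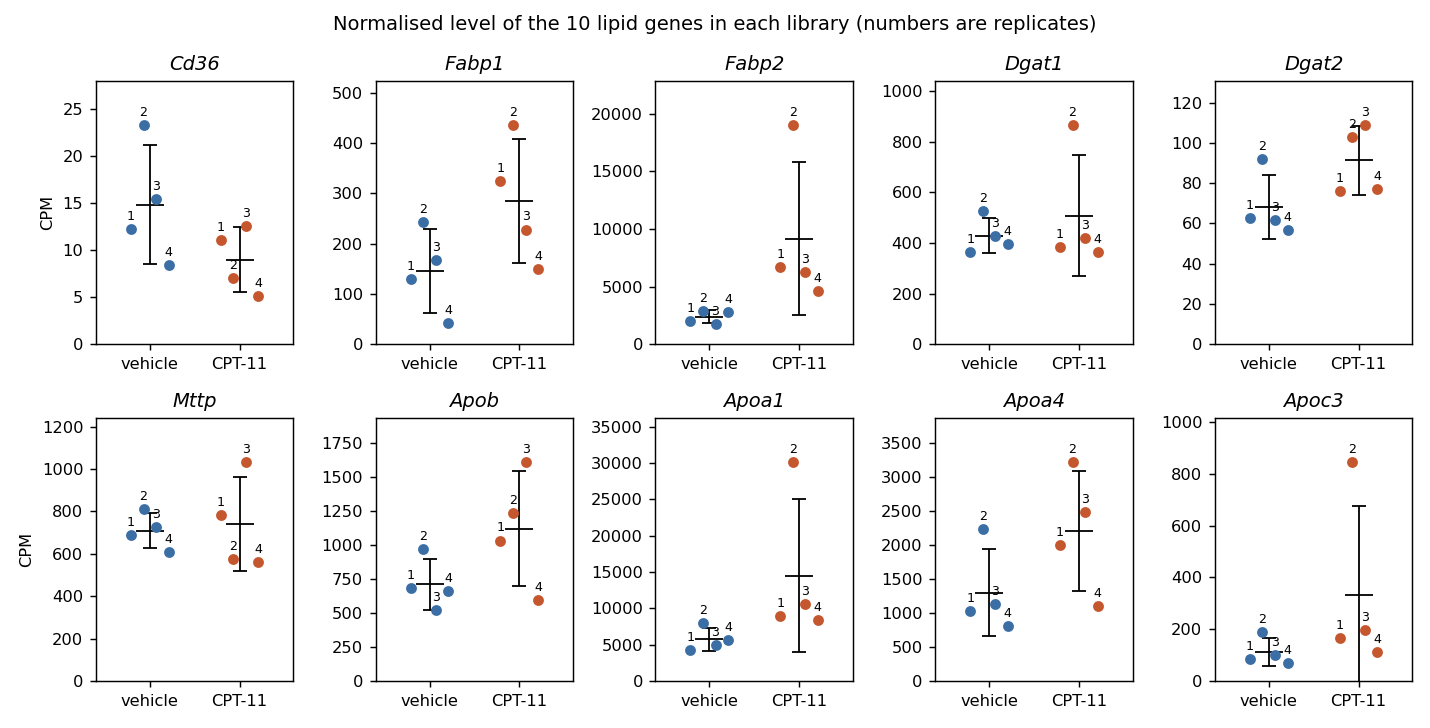
CPM of each of the 10 genes (vertical axes from 0, a scale per gene) in the vehicle (blue) and CPT-11 (red) libraries, with each point numbered by replicate, and the group mean with SD as a black bar (that of Apoc3 with CPT-11 runs past 0 and ends at the axis). The 4 CPT-11 libraries lie above all vehicle libraries for Fabp2 and Apoa1 only, and CPT-11 replicate 2 lies far above the others of its group for Fabp2, Apoa1, Apoc3 and Dgat1.

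Of the fatty acid carriers and the receptor, Fabp2 alone passed the test. Fabp2 had 2003, 2890, 1783 and 2818 CPM in vehicle replicates 1 to 4, and 6743, 19046, 6228 and 4628 CPM in CPT-11 replicates 1 to 4. Every CPT-11 library lay above every vehicle library, and replicate 2 lay 3.25 times above the mean of the other 3 of its group. The rise was 3.86-fold (log2 fold change 1.95 ± 0.44 SE, adjusted p = 0.0337 by edgeR). Without CPT-11 replicate 2 it was smaller but still passed (log2 fold change 1.32, adjusted p = 0.00525). The call was lost without vehicle replicate 1, 2, 3 or 4 (adjusted p by edgeR 0.115, 0.0766, 0.120 and 0.0783) and without CPT-11 replicate 1 (0.0574), with log2 fold changes from 1.83 to 2.07.

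Fabp1 had 130, 242, 167 and 42.4 CPM in the vehicle libraries and 325, 436, 228 and 149 CPM in the CPT-11 libraries. Vehicle replicate 4 was 5.70 times below the highest vehicle library, and 2 CPT-11 libraries lay above all vehicle libraries. Its estimate of 0.97 ± 0.47 (log2 scale, SE) missed the threshold (adjusted p = 0.234 by edgeR). Cd36 had 12.2, 23.3, 15.4 and 8.40 CPM with vehicle and 11.1, 7.03, 12.6 and 5.14 CPM with CPT-11. Replicates 2 and 4 of the CPT-11 group lay below all vehicle libraries, while the other CPT-11 libraries lay within the vehicle range. Its log2 fold change was -0.72 (95% confidence interval -1.50 to 0.061) and did not pass (adjusted p = 0.233 by edgeR), and it was -0.43 without vehicle replicate 2 and -0.32 without CPT-11 replicates 2 and 4 together.

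The triglyceride and lipid transfer enzymes did not pass. Dgat1 had 365 to 528 CPM with vehicle and 365 to 420 CPM in CPT-11 replicates 1, 3 and 4, against 867 CPM in CPT-11 replicate 2. Its log2 fold change was 0.25 (95% confidence interval -0.38 to 0.87), and -0.13 without that replicate. Mttp had 610 to 812 CPM with vehicle and 562 to 1035 CPM with CPT-11, where replicates 2 and 4 lay below all vehicle libraries and replicate 3 above them. Its log2 fold change was 0.059 (95% confidence interval -0.42 to 0.54), so changes of the size seen for Fabp2 lie outside the interval. Dgat2 went from 68.3 ± 15.9 to 91.4 ± 17.1 CPM (n = 4 each). Its groups overlapped, and its log2 fold change of 0.42 did not pass (adjusted p = 0.206 by edgeR).

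Of the apolipoprotein genes among the members, only Apoa1 had groups that did not overlap. It had 4284, 8033, 4936 and 5572 CPM with vehicle and 8920, 30213, 10606 and 8324 CPM with CPT-11. The lowest CPT-11 library lay just above the highest vehicle library, and CPT-11 replicate 2 again stood apart. The estimate was 1.35 ± 0.44 (log2 scale, SE) and missed the threshold (adjusted p = 0.104 by edgeR). It was 0.71 without CPT-11 replicate 2 (adjusted p = 0.0743), and over all alternatives the adjusted p ranged from 0.0119 (DESeq2) to 0.267.

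Apoc3, its neighbour on chromosome 9, had 86.1, 189, 98.4 and 67.3 CPM with vehicle and 167, 847, 198 and 111 CPM with CPT-11. CPT-11 replicate 2 lay 5.34 times above the mean of the others of its group. The log2 fold change of 1.59 (adjusted p = 0.152 by edgeR) became 0.54 without that library (adjusted p = 0.392). Apoa4, the next gene in the cluster, had 1031, 2230, 1128 and 807 CPM with vehicle and 2001, 3227, 2488 and 1106 CPM with CPT-11. Vehicle replicate 2 lay within the CPT-11 range, CPT-11 replicate 4 lay within the vehicle range, and the log2 fold change of 0.76 did not pass (adjusted p = 0.245 by edgeR). It was 1.15 without vehicle replicate 2 (adjusted p = 0.123).

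Apob, whose protein is the scaffold of the particle, had 682, 968, 524 and 663 CPM with vehicle and 1032, 1234, 1612 and 596 CPM with CPT-11. Of the CPT-11 libraries, 3 lay above all vehicle libraries and replicate 4 lay among them. Its estimate of 0.66 ± 0.30 (log2 scale, SE) missed the threshold (adjusted p = 0.209 by edgeR), and met it once each library's trend on gene length was removed (1.0, adjusted p = 0.0443). Without CPT-11 replicate 3 it was 0.42.

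Within each group the members tended to share their high and low libraries. Vehicle replicate 2 held the highest vehicle level of all 10 members, and CPT-11 replicate 4 held the lowest CPT-11 level of 9, all but Dgat2. CPT-11 replicate 2 was highest in its group for 6 members, and replicate 3 for the other 4 (Apob, Mttp, Dgat2 and Cd36). The 10 genes together took 1.02%, 1.63%, 1.01% and 1.17% of the counts in vehicle replicates 1 to 4, and 2.15%, 4.13%, 2.52% and 1.55% in CPT-11 replicates 1 to 4. Apoa1 alone took 2.20% and Fabp2 1.39% in CPT-11 replicate 2. That share of CPT-11 replicate 4 lay below the share of vehicle replicate 2.

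**Figure D2:**
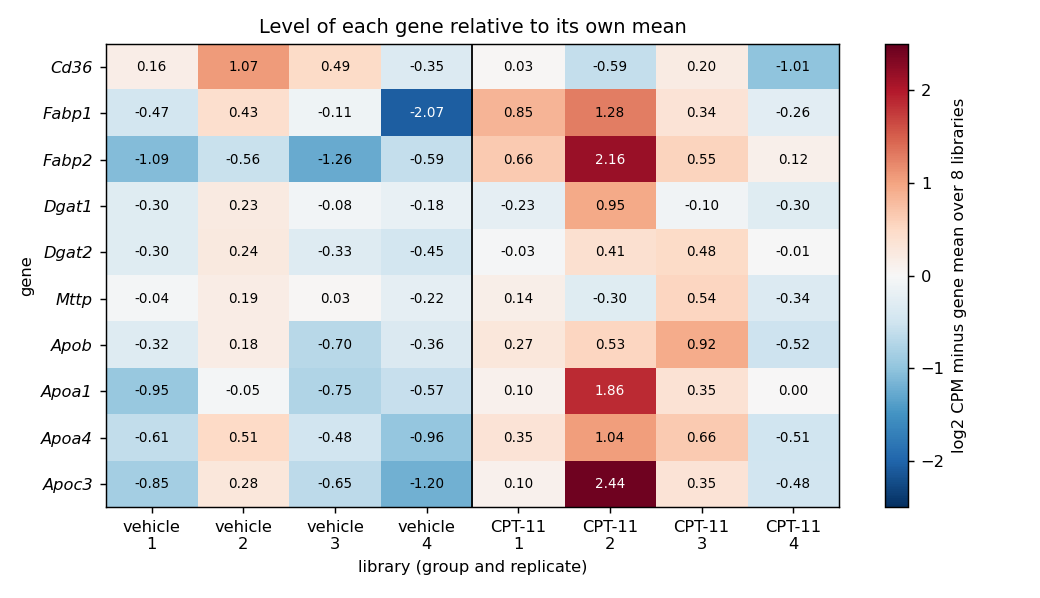
Level of each gene (rows) in each library (columns), as log2 CPM minus the gene's own mean over the 8 libraries, in red above and in blue below the mean. Vehicle replicate 2 is the reddest vehicle column, CPT-11 replicate 4 is the palest or bluest CPT-11 column for most genes, and Cd36 and Mttp are blue in CPT-11 replicate 2, where Apoc3, Fabp2 and Apoa1 are reddest.

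CPT-11 replicate 2 differed from the other libraries in several ways. Its TMM scaling factor was 0.73, against 0.98 to 1.10 in the other 7 libraries. It had the fewest named genes with counts (19029, against 19428 to 20147). Its rank correlations of log2 CPM with the other libraries were 0.9095 to 0.9619, against 0.9626 to 0.9901 among the others. It also differed from the others of its group along gene length. Its slope of log2 CPM on log2 length was -0.32, against -0.13 to 0.14 in the other 7 libraries. In the shortest of 5 length classes of tested genes (up to 1467 bases) its median lay 0.59 above the mean of the other CPT-11 libraries on the log2 scale, and in the longest class (from 4560 bases) 0.43 below (-0.43). The members in the shortest class are Fabp1 (553 bases), Apoc3 (709), Fabp2 (965) and Apoa1 (1035), and in that library they lay 0.90, 2.41, 1.70 and 1.70 above on the same scale. In the next class (1468 to 2271 bases, median 0.12), Dgat1 (1888 bases), Apoa4 (1815) and Dgat2 (2262) lay at 1.15, 0.79 and 0.24. Mttp (3072 bases) and Cd36 (2564 bases) lay at -0.46 and -0.42. Apob, the longest member at 13934 bases, lay at 0.19. Measured in the same way, CPT-11 replicate 3 ran the other way, at -0.52 in the shortest class and 0.40 in the longest. CPT-11 replicate 1 lay at -0.26 and 0.11, and CPT-11 replicate 4 at -0.00047 and -0.21. For these libraries the mean of the others includes replicate 2. With the trend on length removed in every library, Fabp2 still passed (log2 fold change 1.56, adjusted p = 0.0129 by edgeR), and Apoa1 was at 0.99 (adjusted p = 0.0714), Apoc3 at 1.05 (adjusted p = 0.174) and Fabp1 at 0.63 (adjusted p = 0.387).

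**Figure D3:**
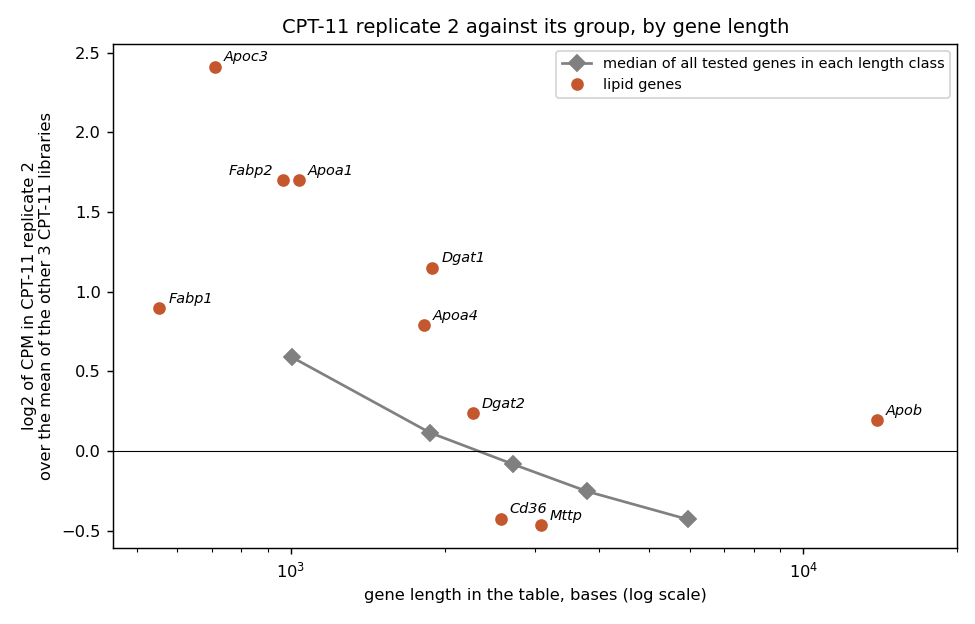
Log2 of the CPM in CPT-11 replicate 2 over the mean CPM of the other 3 CPT-11 libraries (vertical axis) against the gene length in the table in bases (horizontal axis, log scale). Red points are the 10 lipid genes and grey diamonds are the medians of the 5 length classes of all tested genes, which fall from 0.59 to -0.43; Apoc3, Fabp2, Apoa1 and Dgat1 lie well above the grey line.

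**Figure D4:**
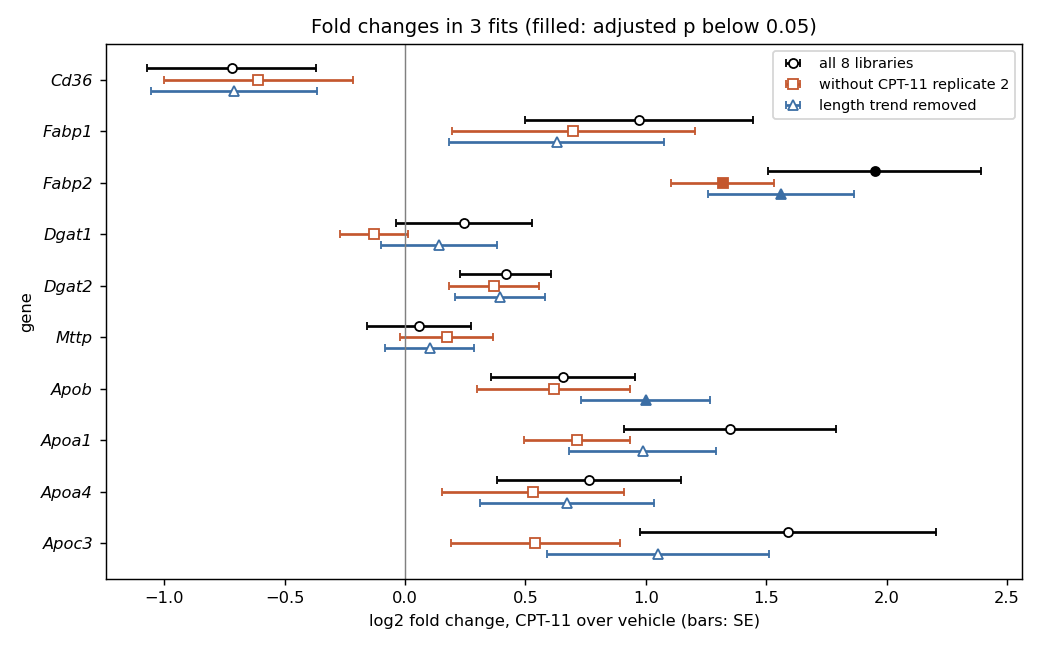
Log2 fold change of each gene, CPT-11 over vehicle (horizontal axis, bars are SE), in edgeR fits with all 8 libraries (black circles), without CPT-11 replicate 2 (red squares) and with the trend on gene length removed (blue triangles), filled where the adjusted p was below 0.05. Fabp2 is filled in all 3 fits, Apob in 1, and Dgat1 changes sign without CPT-11 replicate 2.

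To set the members beside a brush border gene, each was taken as a log2 ratio to Vil1, the gene of villin, in the same library. Vil1 itself had 1287 to 1649 CPM with vehicle and 1302 to 1819 CPM with CPT-11. The mean ratio of Fabp2 was higher with CPT-11 by 1.58, and that of Apoa1 by 0.99, both without overlap between groups. The ratios of the other 8 members overlapped, with differences from -0.88 (Cd36) to 1.05 (Apoc3). These are descriptions with no test, and a single gene does not measure the amount of enterocyte RNA. Vil1 (3124 bases) is longer than Fabp2 and Apoa1, so the ratios keep the trend on length of CPT-11 replicate 2.

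Enterocyte markers were abundant in both groups of these preparations labelled as crypt cells. Beside the counts that follow, edgeR called 2.98% of all genes higher and 2.52% lower, and 13.4% were higher at an unadjusted p below 0.05. Of 19 brush border genes 0 were called by edgeR, 7 stood higher at an unadjusted p under 0.05, and 17 had positive fold changes (median 0.28). DESeq2 called 3 of them higher, limma-voom 0 and limma-voom with quality weights 6. Their summed level was 10447 to 14134 CPM with vehicle and 10919 to 17455 CPM with CPT-11, with vehicle replicate 2 highest in its group and CPT-11 replicate 4 lowest in its own, as for the members. Of 8 villus tip genes 0 were called by edgeR, with 3 higher at an unadjusted p under 0.05, while DESeq2 called 3, limma-voom 0 and limma-voom with quality weights 3. Their sum was 900 to 1425 against 1326 to 2295 CPM. Of 7 ileal enterocyte genes 2 were called higher, Slc10a2, the apical bile acid transporter, and Slc51b, a subunit of the basolateral one, and the sum was 633 to 1995 against 1477 to 6897 CPM. Both passed in 12 of 18 alternatives, and neither did without vehicle replicate 1, 2 or 3, without CPT-11 replicate 4, or without CPT-11 replicates 2 and 4 together. Of 6 crypt stem cell genes 3 were called lower (Lgr5, Olfm4 and Smoc2). The others did not pass: Axin2 and Slc12a2 had log2 fold changes of -0.35 and -0.49, and Ascl2 went the other way (0.37). The sum of the 6, mostly from Olfm4, was 1511 to 1804 against 462 to 698 CPM. Of 6 genes of dividing cells 2 were called lower (Top2a and Mki67), with sums of 610 to 821 against 364 to 508 CPM. Lgr5, Olfm4, Smoc2 and Top2a passed in all 18 alternatives and Mki67 in 13. The part of these shifts in the level of the lipid genes was not tested.

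Other cells can also express members of the set. Their marker counts stand beside the same shares of all genes: 2.98% called higher, 2.52% lower, and 13.4% higher at an unadjusted p below 0.05. For the adipocyte, which uses Cd36 and Dgat2, Adipoq, Plin1, Lep, Retn and Fabp4 had 9 counts or fewer in every library, and Cfd 31 at most. Adipoq and Fabp4 had counts in every vehicle library (means 0.129 and 0.229 CPM) and 0 in every CPT-11 library. Cfd stood at 0.484 ± 0.572 and 0.0308 ± 0.0617 CPM. Adipoq, Fabp4 and Cfd were too low to be tested. The sum of the 8 markers (54.6 to 90.7 against 65.9 to 109 CPM) came mostly from Lipe and Cidec, the 2 that were tested. Of these edgeR called 0 (1 higher at an unadjusted p under 0.05) and DESeq2 called Cidec higher. Of 9 endothelial markers 3 were tested and 0 called by edgeR, DESeq2 or limma-voom (1 higher at an unadjusted p under 0.05), Emcn and Gpihbp1 were at 0 in all libraries, and the sum was 4.22 to 5.57 against 5.50 to 7.70 CPM. Of 10 macrophage and dendritic cell markers 8 were tested and 1 was called higher, Cd14, with 5 higher at an unadjusted p under 0.05 and a median log2 fold change of 0.92. DESeq2 called 2 and limma-voom with quality weights 5. None of the 10 was at 0 throughout, with sums of 40.3 to 52.4 against 48.1 to 67.4 CPM. The liver makes Apoa1, Apob and Apoc3 too, but its albumin gene Alb had 35 counts at most in a library, and the 8 hepatocyte markers summed to 3.68 to 5.06 against 2.13 to 6.19 CPM, with Cyp2e1 called lower, a call that held in 10 of 17 alternatives. Pnlip, Prss1, Prss2, Cela2a and Amy2a5 of the exocrine pancreas were at 0 in all libraries. The other 3 of that list had counts: Cela1, the 1 tested, stood at 4.32 ± 1.30 and 7.04 ± 2.90 CPM (adjusted p = 0.203 by edgeR), Ctrb1 had 7 counts at most and Cpa1 2. Of 9 fibroblast and muscle markers 5 were tested and 0 called by edgeR, DESeq2 or limma-voom without weights (2 higher at an unadjusted p under 0.05), with sums of 19.8 to 61.6 against 44.6 to 139 CPM. Of 10 genes of dissociation stress 4 were called higher (Egr1, Junb, Hspa1a and Hspa1b), with sums of 240 to 329 against 351 to 472 CPM. Under 18 alternatives Egr1 passed in 8, Hspa1a in 13, Junb in 14 and Hspa1b in 18, and without vehicle replicate 4 Hspa1b alone did. The part of handling in the results was not tested.

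The wider lipid pathway was described by 6 lists with 104 genes, of which 92 were tested, 6 were called higher and 4 lower. That is 10.9% of those tested, beside 5.50% of all genes. The lists were chosen with earlier results of these data known. In fatty acid uptake and activation, 0 of 13 rose and 2 fell by edgeR (median 0.071), with 4 higher at an unadjusted p under 0.05, and DESeq2 called 1 higher and 3 lower. Slc27a2, a fatty acid transport protein with acyl-CoA synthetase activity, fell from 56.3 ± 6.52 to 34.6 ± 5.85 CPM (adjusted p = 0.0250), and Acsl1, an acyl-CoA synthetase, from 48.4 ± 7.40 to 29.0 ± 6.71 CPM (adjusted p = 0.0493). Acsl6, of the same family, stood at 0.98 ± 0.29 and 0.27 ± 0.16 CPM (adjusted p = 0.0504). Fabp6, the ileal bile acid binding member of the FABP family, had 349, 224, 163 and 1301 CPM with vehicle and 1419, 5177, 681 and 2537 CPM in the CPT-11 libraries. Its groups overlapped and it did not pass (log2 fold change 2.27, adjusted p = 0.111), though it did without vehicle replicate 4 (adjusted p = 0.0380).

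Of 18 tested genes of triglyceride resynthesis and lipid droplets 0 were called by edgeR, 7 stood at an unadjusted p below 0.05 (6 higher and 1 lower), and the median was 0.27. DESeq2 called Cidec higher and Agpat3 lower, limma-voom called 0, and limma-voom with quality weights called 3 higher and Agpat3 lower. The acyltransferase gene Agpat3 was at 91.5 ± 17.5 and 59.7 ± 7.62 CPM (adjusted p = 0.0602). Cidec, Agpat1 and Lpin3 had log2 fold changes of 0.90, 0.45 and 0.46 and adjusted p of 0.116, 0.134 and 0.135. In lipoprotein assembly and secretion, 2 of 22 rose and 0 fell by edgeR (median 0.046). DESeq2 called 4 higher and 0 lower, limma-voom 2 and 0, and limma-voom with quality weights 5 and 1. Apoc2, the lipoprotein lipase cofactor, had 49.9 to 93.3 CPM with vehicle and 196, 589, 187 and 125 CPM with CPT-11, a rise of 2.02 on the log2 scale (adjusted p = 0.0326). Sar1b, the GTPase of the vesicle coat that carries chylomicrons from the endoplasmic reticulum, rose from 85.7 ± 8.91 to 131 ± 20.6 CPM (adjusted p = 0.0371). Apoe and Vamp7 had log2 fold changes of 0.72 and 0.37 (adjusted p = 0.0887 and 0.104).

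Triglyceride breakdown moved in both directions, with 3 of 9 genes up and 1 down (median -0.070). Abhd6, a monoglyceride lipase, rose from 41.4 ± 4.10 to 71.6 ± 14.6 CPM (adjusted p = 0.0201), and Abhd5, the coactivator of adipose triglyceride lipase, from 14.2 ± 2.15 to 23.6 ± 3.98 CPM (adjusted p = 0.0331). Lipa, the lysosomal acid lipase, named after its values were seen, rose with a log2 fold change of 0.81 (adjusted p = 0.0432). Pnliprp2, a pancreatic lipase relative, fell from 446 ± 70.2 to 225 ± 48.8 CPM (adjusted p = 0.0170), and Pnliprp1 was at -1.08 on the log2 scale (adjusted p = 0.0524). In sterol absorption 1 of 8 rose, Anxa2 (672 ± 61.4 to 1210 ± 302 CPM, adjusted p = 0.0352), a membrane-binding annexin with many other roles. Npc1l1, the cholesterol uptake protein, and Soat2, which esterifies cholesterol, had log2 fold changes of 0.34 and 0.29 (adjusted p = 0.448 and 0.396), and Abca1 0.715 (adjusted p = 0.279).

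Among 22 transcription factors of enterocyte lipid genes 0 rose and 1 fell, 16 had negative fold changes, and the median was -0.24. Nr5a2 (LRH-1) fell from 43.7 ± 4.39 to 25.3 ± 5.18 CPM (adjusted p = 0.0239). DESeq2 called 6 of the 22 lower and 0 higher. Gata4 (72.3 ± 15.1 and 42.2 ± 10.0 CPM, adjusted p = 0.0549), Ppara (57.8 ± 4.65 and 31.5 ± 12.4 CPM, adjusted p = 0.0646) and Rxra (104 ± 4.16 and 80.3 ± 6.41 CPM, adjusted p = 0.0739) did not pass. Of the 10 pathway genes called, 0 kept the call without vehicle replicate 1 or 3, and 4 and 2 kept it without vehicle replicates 2 and 4. Without CPT-11 replicates 1 to 4 the call was kept by 3, 10, 9 and 4 of them. With all 8 libraries, all 10 kept it under RLE scaling, the stricter filter, DESeq2 and limma-voom with or without quality weights. Acsl1 lost it under upper-quartile scaling, Apoc2 without a filter, and Sar1b with the length trend removed.

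**Figure D5:**
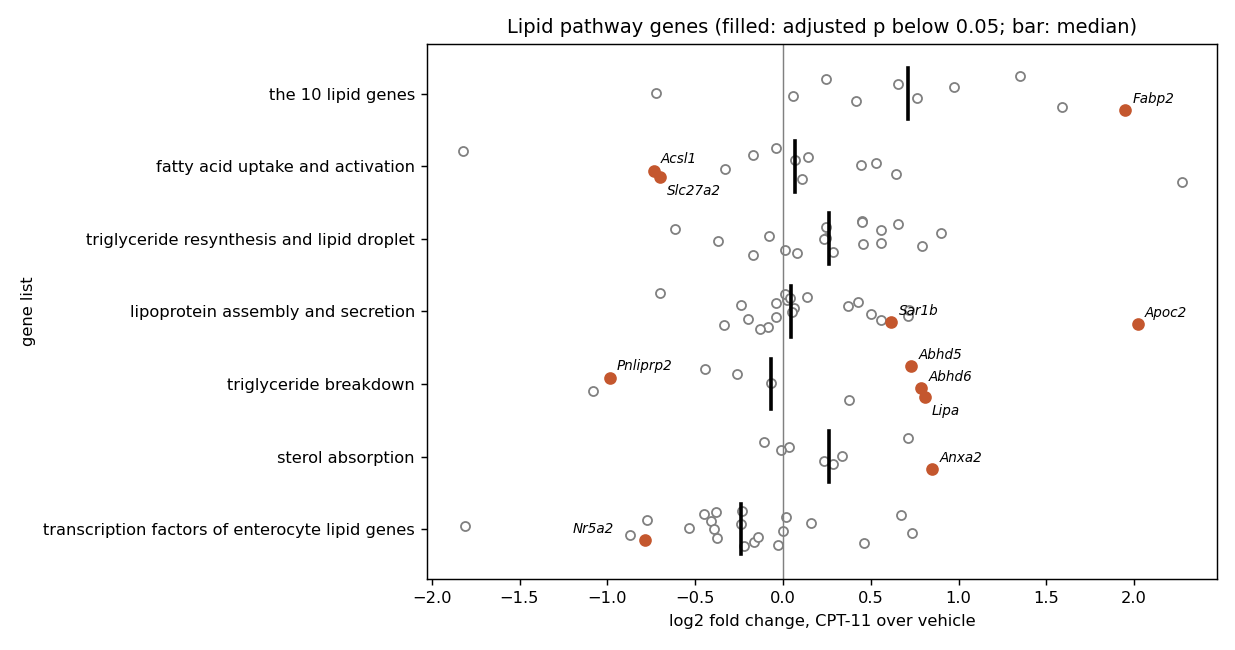
Log2 fold change, CPT-11 over vehicle (horizontal axis), of each tested gene of the 10 lipid genes and of the 6 pathway lists (rows), with vertical scatter for legibility, filled and named where the adjusted p was below 0.05, and with the median of each list as a black bar. The median of the 10 genes is 0.71, that of the transcription factors is -0.24, and the others lie between -0.070 and 0.27.

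For each member the tested genes with the most similar profile were taken as those with the smallest root-mean-square difference of log2 CPM over the 8 libraries, each profile centred on its mean, among 11237 candidates. For Fabp2 these were Rnf208 (0.241), Cox6b2 (0.248) and Kcnj13 (0.259). For Apoa1 they were Espn (0.112), Cst6 (0.136) and Spink1 (0.136). For Apoa4 they were Ephx2 (0.164), Slc47a1 (0.216) and Usp35 (0.226), and for Apob they were Podn (0.152), Gramd1b (0.156) and Slco2a1 (0.158). Apoc3 was nearest to Ltb4r1 (0.288), Ms4a10 (0.353) and its cluster neighbour Apoa1 (0.369), the only member in another member's list. Fabp1 was nearest to Slc2a2 (0.305), Rbp2 (0.425) and Slc28a1 (0.449). Mttp was nearest to Rragd (0.0804), Lpgat1 (0.0835) and Kctd21 (0.0889), Dgat1 to Reep6 (0.0749), Fcgrt (0.0896) and Gstt1 (0.0992), Dgat2 to Hsd17b11 (0.0948), Slc5a9 (0.111) and Chst8 (0.125), and Cd36 to Prss12 (0.260), Slc9a3 (0.260) and Slc7a8 (0.264). Among the members, the closest pairs were Apob with Dgat2 (0.296), Dgat1 with Dgat2 (0.335) and Dgat2 with Mttp (0.335). Of the 11237 candidates, 112 lay nearer to Apob than Dgat2 did. Nearer to Dgat1 than Dgat2 lay 2115, and nearer to Dgat2 than Mttp lay 2098, so these pairs were not particular to the members. Fabp2 and Apoa1 differed by 0.352 and Apoa1 and Apoc3 by 0.369, with 109 and 135 candidates nearer to Apoa1.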

How the data were processed

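RNA from ileal crypt preparations was sequenced in 8 libraries, 4 with vehicle and 4 with CPT-11. The deposited values are estimated counts, 1 row to a gene, with between 10.3% and 11.1% of values not whole, and the authors did not normalize them. The gene length column, in bases, is another deposited value, whose definition is not given in the sources used here. Per the submitters' processing notes, Bowtie2 2.4.1 and build GRCm38.p6 were used. Total counts were 20790164 to 23479121 per library. The 543 rows without a gene name (0.325% to 0.662% of counts) were left out. The authors' group means were not used.

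Rounded counts entered edgeR 4.0.16 (R 4.3.3; TMM scaling, default filter of a count of about 10 and a total of 15, robust quasi-likelihood F test, two-sided, all 8 libraries, no replicate block). Standard errors come from the F statistic, and intervals from its degrees of freedom. CPM use the TMM-scaled library size. Log2 CPM for profiles carry a pseudocount of 0.5 CPM. Coordinates are from GENCODE M21, with 55141 of 55487 named rows matched by identifier. The scripts were tested on simulated data.

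The members and lists were chosen with earlier results of these data known. The result of 1 marker list is not reported here. The genes named are the members, and, per pathway list, the 4 genes of smallest p (for a list with calls in both directions, 2 for each), plus the 3 nearest profiles per member. Alternatives tried were upper-quartile or RLE scaling, no filter, a filter of 1 CPM in 4 libraries, DESeq2 1.42.0, limma-voom (limma 3.58.1) with and without quality weights, the replicate block, each library left out, CPT-11 replicates 2 and 4 left out together, removal of the trend on gene length, and TPM in place of CPM.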

Additional observations from a re-analysis of the deposited data

Results flagged for a closer look

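In groups of 4, a library was marked when its gap to the nearest other, over the group's range, exceeded the 95% critical value of Dixon's test. Chance marks about 1 in 20 groups. Of 68 groups from 34 named genes, 11 were marked. Among the members these were Apoa1 (30213 CPM), Apoc3 (847 CPM), Fabp2 (19046 CPM) and Dgat1 (867 CPM), all in CPT-11 replicate 2 and all high. That library was also high for Agpat1 (108 CPM), Apoc2 (589 CPM) and Abhd6 (93.4 CPM). Vehicle replicate 2 was high for Slc27a2 (66.0 CPM) and Npc1l1 (478 CPM), and vehicle replicate 4 was high for Fabp6 (1301 CPM). CPT-11 replicate 4 was low for Vamp7 (31.5 CPM).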

How the results depend on the processing

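Of 180 fold changes of single members under 18 alternatives, 165 kept their sign and their side of the threshold, 5 newly passed, 5 no longer passed and 5 changed sign. Members called higher, 1 in the reported fit, were 2 with DESeq2 (Fabp2 and Apoa1), 2 with quality weights in limma-voom (Fabp2 and Apoa1), 2 with the length trend removed (Apob and Fabp2), and between 0 and 1 with a library left out. Called lower were 0 in every alternative run. Over all genes, 417 were called higher and 353 lower, against 1045 and 839 with DESeq2, 1548 and 1624 with quality weights, 637 and 575 without CPT-11 replicates 2 and 4 together, 683 and 620 with the length trend removed, and 132 to 769 and 104 to 753 with a library left out. The sign of Dgat1 changed with quality weights (-0.12), without CPT-11 replicate 2 (-0.13, where leaving out other single libraries gave at most 0.373) and with CPT-11 replicates 2 and 4 both left out (-0.091), and that of Mttp without vehicle replicate 4 (-0.010) or CPT-11 replicate 3 (-0.15, at most 0.173 without another single library). The cause of these changes was not tested, and a fit with fewer libraries can detect less.

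With the replicate number as a block, 3 members were called higher (Fabp2, Apoc3 and Fabp1, adjusted p = 0.0371, 0.0398 and 0.0413 by edgeR) and 397 and 289 genes over all, and of the 10 pathway genes called Acsl1 and Sar1b lost the call. The numbers were not taken as pairs: the deviations of same-numbered libraries correlated at 0.31, 0.17, -0.16 and 0.12 over genes. In TPM in place of CPM no ratio of group means changed by more than the spread between libraries.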

Other observations

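Vehicle replicate 4 was the lowest of its group for Fabp1 and the highest for Fabp6, of the same protein family. Fabp1 was at 42.4 CPM in vehicle replicate 4 against 130 to 242 CPM elsewhere in the group, while Fabp6 was at 1301 CPM in that library against 163 to 349 CPM elsewhere. In the same library Gata4, a factor of the proximal small intestine, stood at 52.7 CPM against 69.2 to 87.8 CPM, and Cd36 at 8.40 CPM against 12.2 to 23.3 CPM. Of the 7 ileal enterocyte genes, which include Fabp6, all but Cubn were highest in that library among the vehicle libraries. Their sum was 1995 CPM there, mostly from Fabp6, and 633 to 866 CPM in the other vehicle libraries. In the CPT-11 libraries that sum was 1477 to 6897 CPM, Fabp6 was at 681 to 5177 CPM and Gata4 at 34.5 to 56.7 CPM. Cd36 was at 5.14 to 12.6 CPM in those libraries, but Fabp1 was at 149 to 436 CPM, above vehicle replicate 4. No test was made of this pattern, which was noticed after the values were seen.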
